A study of Mus musculus with 6 samples.

Results

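The 4 loci described here hold the genes of the enzymes that make and remove oxidised 5-methylcytosine: Tet1, Tet2, Tet3 and Tdg. They were followed in lists of cytosines carrying 5-hydroxymethylcytosine (5hmC) or 5-formylcytosine (5fC) in E14 cells, an established mouse embryonic stem cell line. The loci were defined by name and position in the mm9 build, and no measured value entered that rule. Earlier results of these data were known when they were chosen. Tet1 was taken as the 90 kb of chromosome 10 that begin at 62260001, Tet2 as the 92 kb of chromosome 3 from 133120001, Tet3 as the 100 kb of chromosome 6 from 83310001 and Tdg as the 35 kb of chromosome 10 from 82085001. No mm9 annotation was used, so exons and introns are not told apart, and the intervals may reach past the genes. Together they span 317 kb, or 159 bins of 2 kb of the 1290833 that cover the nuclear chromosomes. They hold 5197 of the 20807838 nuclear cytosines listed for 5hmC and 1974 of the 6246187 listed for 5fC. The study comprised 6 Pvu-Seal-seq libraries of untreated E14 cells grown on gelatin in medium with serum and the cytokine LIF. The culture at passage 14 gave 2 technical replicates for 5hmC and 2 for 5fC, and the culture at passage 12 gave 2 for 5hmC alone. For 5hmC the assay cuts DNA near the modified base with the enzyme PvuRts1I, attaches an azide-bearing glucose to 5hmC and, after biotin is joined to it, captures the fragments on streptavidin. Each mark has 1 read number per listed cytosine, with no value for single libraries, so no value has a replicate error, no test between marks or loci could be run, and intervals are 95% counting intervals over cytosines, which are not independent of their neighbours.

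The TET proteins are dioxygenases that oxidise 5-methylcytosine to 5hmC, then to 5fC and 5-carboxylcytosine. Tet1 and Tet2 are the members known to act in mouse embryonic stem cells, while Tet3 is best known from the oocyte and zygote. Tdg encodes thymine DNA glycosylase, which cuts out 5fC and 5-carboxylcytosine so that base excision repair can put back an unmodified cytosine. Bodies of active genes often carry 5hmC, and start regions rich in CG dinucleotides are usually low in DNA methylation and so in its oxidised forms.

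The start regions were examined first, by sequence, because the lists give bases and strands. RefSeq (GRCm38.p6) gives 1 promoter of 300 bases for each of the 4 genes, from 250 bases before to 50 after the start. They are shown 5′ to 3′ on the strand of the gene, with every CG in capitals, because most listed cytosines were CG.
Tet1: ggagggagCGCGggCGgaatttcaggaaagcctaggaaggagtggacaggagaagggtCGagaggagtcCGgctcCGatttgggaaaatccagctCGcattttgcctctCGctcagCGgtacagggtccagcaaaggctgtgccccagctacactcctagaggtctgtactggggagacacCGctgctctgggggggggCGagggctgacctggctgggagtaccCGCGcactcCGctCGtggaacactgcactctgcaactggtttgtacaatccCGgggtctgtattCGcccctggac
Tet2: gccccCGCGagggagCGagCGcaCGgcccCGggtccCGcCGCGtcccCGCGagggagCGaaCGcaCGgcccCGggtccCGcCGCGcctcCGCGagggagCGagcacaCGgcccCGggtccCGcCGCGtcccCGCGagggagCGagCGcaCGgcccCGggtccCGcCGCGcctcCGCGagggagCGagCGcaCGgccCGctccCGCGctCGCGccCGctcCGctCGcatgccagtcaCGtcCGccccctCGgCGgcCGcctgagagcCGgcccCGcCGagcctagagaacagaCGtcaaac
Tet3: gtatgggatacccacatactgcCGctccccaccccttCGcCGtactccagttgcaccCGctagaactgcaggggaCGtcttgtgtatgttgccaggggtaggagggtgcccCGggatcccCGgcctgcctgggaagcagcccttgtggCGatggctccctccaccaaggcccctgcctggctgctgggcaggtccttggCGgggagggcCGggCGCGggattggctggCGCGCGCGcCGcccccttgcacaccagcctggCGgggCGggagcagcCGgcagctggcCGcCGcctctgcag
Tdg: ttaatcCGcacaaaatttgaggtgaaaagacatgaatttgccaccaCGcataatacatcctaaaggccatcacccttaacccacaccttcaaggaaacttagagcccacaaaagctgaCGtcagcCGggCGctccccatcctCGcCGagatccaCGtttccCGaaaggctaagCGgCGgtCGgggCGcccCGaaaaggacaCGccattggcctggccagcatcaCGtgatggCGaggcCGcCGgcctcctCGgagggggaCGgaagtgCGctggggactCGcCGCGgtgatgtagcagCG
The Tet2 promoter has 57 CG dinucleotides, a number reached by 0.152% of the 32851 RefSeq promoters. Tdg has 26, Tet3 22 and Tet1 17. Much of the Tet2 sequence repeats a short unit with small changes, and whether reads can be placed in it was not tested.

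No genome of the mm9 build was used, so each promoter was laid over every place of its interval and the 500 kb on both sides. A place fitted when each cytosine listed there for either mark was a cytosine on that strand with that next base in the promoter. No member promoter fitted at any place holding 10 or more listed cytosines. Inside the intervals, fitting places held at most 4 listed cytosines for Tet1, 5 for Tet3, 5 for Tdg and 6 for Tet2. Their CG dinucleotides alone offer 34 cytosines in Tet1, 44 in Tet3, 52 in Tdg and 114 in Tet2. With the flanks included the limits were 5 for Tet1, 6 for Tet3, 7 for Tdg and 8 for Tet2. Wherever these promoters lie in the regions searched, then, few or none of their CG cytosines were listed, provided that their letters are the same in mm9. The fullest windows of 300 bases in the same intervals held 43 listed cytosines at Tet1, 27 at Tet2, 53 at Tet3 and 28 at Tdg. Mean densities were far lower, at 18.8, 10.97, 21.03 and 11.3 5hmC cytosines per kb in that order. The number in a typical window of 300 bases was not computed, so the limits are not shown to lie below it.

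Promoters of other genes around Tet1, Tet3 and Tdg show that the search can find a place for a promoter with many listed cytosines. It cannot place a promoter with few, and around Tet2 it placed none. At a minimum of 10 listed cytosines, chosen after the values were seen, 9 of 33 other promoters around Tet1 had 1 best place, as did 5 of 36 around Tet3, 1 of 18 around Tdg and 0 of 9 around Tet2. The 9 around Tet1 lay as far from each other as they do in RefSeq, and so did the 5 around Tet3. The 9 are not all separate places. Those of Hkdc1 and Gm30322 overlap, as do those of Srgn and Gm51804 at another place, so each pair shares listed cytosines. Those placed mostly had fewer CG than the member promoters. Of the 45 other promoters with at least 17 CG dinucleotides, the number in Tet1, 2 were placed, each with 10 listed cytosines, and the other 43 fitted at no more than 8. Of the 51 with fewer CG, 13 were placed, with up to 36 listed cytosines. Some of these lay just below that cut: Gm32943 near Tet3 had 16 CG and 31 listed cytosines, and Gm30322 near Tet1 had 14 and 36. The low limits of the member promoters were therefore shared by most neighbouring promoters as rich in CG. A promoter of Srgn, the gene of the proteoglycan serglycin, is shown as an example of the CG-poor kind, picked after its values were seen, with the 26 listed cytosines in capitals (G where the cytosine is on the opposite strand). It fitted chromosome 10 from 61990144 to 61990443 in mm9 (minus strand), where the next best place held 5.
Srgn: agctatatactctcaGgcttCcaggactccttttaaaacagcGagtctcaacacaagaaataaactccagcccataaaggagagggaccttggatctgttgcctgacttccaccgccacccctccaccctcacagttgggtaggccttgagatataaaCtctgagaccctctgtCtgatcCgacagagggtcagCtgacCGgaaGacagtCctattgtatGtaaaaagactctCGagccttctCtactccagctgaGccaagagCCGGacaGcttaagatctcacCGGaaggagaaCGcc
There, 24 cytosines carried 411 5hmC reads and 12 carried 272 5fC reads, and the sequence has 8 CG dinucleotides.

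Across the loci, Tet3 and Tet1 were densely marked, and Tet2 and Tdg lay closer to the genome-wide level. For 5hmC, Tet3 held 21.03 listed cytosines per kb (Poisson interval on its 2103 cytosines 2014 to 2195). Tet1 held 18.8 per kb (1688 cytosines, interval 1608 to 1771). Tdg held 11.3 per kb (397, 359 to 438) and Tet2 10.97 per kb (1009, 948 to 1073), so that these neighbours in the order differed by less than counting error. The nuclear mean was 8.06 per kb. Tet3 had more 5hmC cytosines than 96.4% of autosomal windows of its length, Tet1 than 92.8%, Tdg than 69.1% and Tet2 than 67.0%.

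For 5fC the order of the leading loci changed. Tet1 held 8.01 listed 5fC cytosines per kb (721, interval 669 to 776) and Tet3 7.68 (768, 715 to 824), a difference within counting error. Tdg held 4.0 per kb (140, 118 to 165) and Tet2 3.75 per kb (345, 310 to 383), against a nuclear mean of 2.42. By reads per kb Tet1 led for both marks, with 300.1 for 5hmC and 141 for 5fC. Tet3 had 268 and 118, Tdg 164 and 78.3, and Tet2 160 and 61.3, where the nuclear means were 102 and 39.6. Reads at the median listed cytosine were 11 for 5hmC and 14 for 5fC at Tet1, and 9 and 12 at Tet3.

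Set against the 500 kb on both sides, the 3 TET loci stood above their surroundings and Tdg did not by counting error. The density of 5hmC cytosines was 1.22 times that of the flanks at Tet1 (interval 1.17 to 1.28), 1.54 times at Tet2 (1.44 to 1.64), 1.56 times at Tet3 (1.49 to 1.62) and 1.07 times at Tdg (0.968 to 1.18). The Tdg value turned with the setting, being 0.942 with CG cytosines alone, 1.2 with 250 kb flanks and 1.22 with the interval shortened by 5 kb at both ends. For 5fC the values were 1.39 times at Tet1 (1.29 to 1.49), 2.09 at Tet2 (1.87 to 2.32), 1.65 at Tet3 (1.53 to 1.77) and 1.12 at Tdg (0.939 to 1.32). Counting error does not cover the variation along a chromosome, so windows of the same length were laid outward through the flanks. None of the 10 windows around Tet3 had as many cytosines of either mark, their highest being 17.7 5hmC and 6.83 5fC cytosines per kb. Around Tet1, 1 of 10 windows had more 5hmC cytosines (19.4 per kb) and 0 had more 5fC. Around Tet2, 1 of 10 had more of each mark, up to 13.9 and 4.58 per kb. Around Tdg, 12 of 28 windows had more 5hmC cytosines and 11 had more 5fC.

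**Figure D1:**
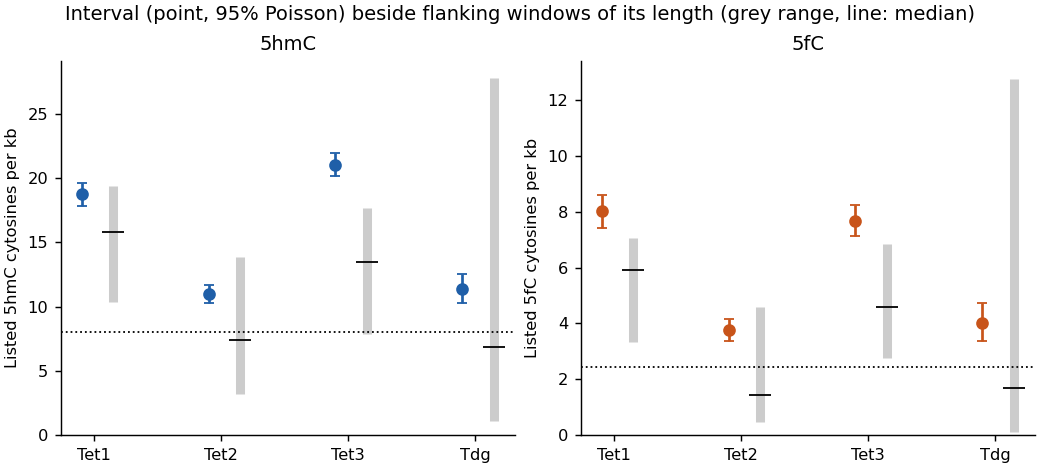
Listed cytosines per kb (vertical axes, from 0) of 5hmC (left) and 5fC (right) in the 4 intervals (points with 95% Poisson intervals), beside the range (grey) and median (black line) of flanking windows of the same length; the dotted line is the nuclear mean. Tet3 lies above all its flanking windows for both marks, and Tdg lies inside a range from 1.11 to 27.8 for 5hmC.

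The sides differed most at Tdg. Its left flank held 3.34 5hmC cytosines per kb and its right flank 17.9, so the 11.3 per kb of the locus was 3.40 times the left side and 0.636 times the right side. For 5fC the sides held 0.714 and 6.45 per kb. Tdg thus lies at a step between a sparsely and a densely marked stretch of chromosome 10. At Tet2 the left side was the denser, with 9.23 against 5.03 5hmC cytosines per kb, and the locus exceeded both. The sides of Tet1 were nearly alike, at 15.8 and 14.9 per kb, and Tet3 exceeded both of its sides, which held 15.9 and 11.2.

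**Figure D2:**
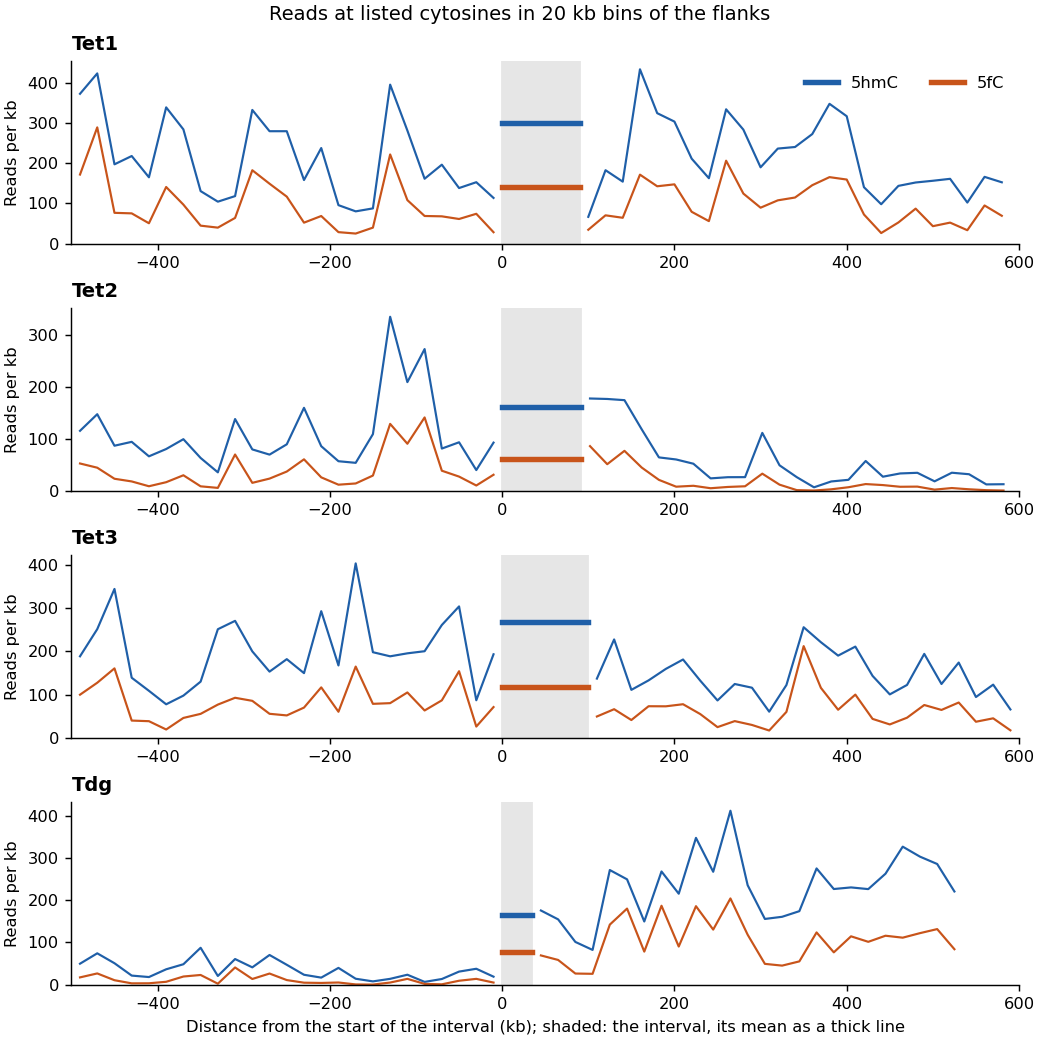
Reads per kb at listed cytosines (vertical axes) in 20 kb bins over the 500 kb on both sides of each interval, by distance from its start in kb; the shaded area is the interval and the thick lines its mean. At Tdg the 5hmC line stays at 87.4 or below on the left and reaches 412 on the right.

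At Tet1, marks ran along nearly all of the interval and then stopped. Of its 45 bins of 2 kb, 43 held 5hmC cytosines, with a median of 35 and a highest of 91. The bin with most 5hmC cytosines ran from 62302001 to 62304000, with 91 cytosines and 1507 5hmC reads beside 39 cytosines and 683 5fC reads. Next came 62340001 to 62342000 with 88 cytosines (1316 reads) and 62328001 to 62330000 with 71 (681 reads). Most 5fC cytosines, 42 with 810 reads, lay from 62274001 to 62276000. From 62345923 to 62350808, a stretch of 4886 bases, no cytosine of either mark was listed. It took up the last bins of the interval, which is the 5′ side of a gene that RefSeq places on the minus strand. Stretches at least as long made up 5.99% of the autosomal bases. Bins without either mark numbered 2 of 45 at Tet1, 1 of 46 at Tet2 and 0 at Tet3 and Tdg, or 1.89% of the members' bins against 7.34% of autosomal bins. Bins without 5hmC numbered 2 at Tet1, 2 at Tet2 and 0 at Tet3 and Tdg (2.52% against 7.54%), and bins without 5fC 2, 5, 3 and 3 (8.18% against 34.1%).

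A single cytosine of Tet1 stood apart by its reads. The plus-strand CG cytosine at 62343652 had 334 5hmC reads, while the next deepest at Tet1, at 62278306, had 96. Only 0.00304% of nuclear 5hmC cytosines were as deep. The opposite cytosine of this CG was not listed for 5hmC, and the cytosine itself had 38 5fC reads. The CG dyad with most reads among those with both marks on both strands was at 62272164, with 94 plus and 61 minus 5hmC reads and 158 plus and 47 minus 5fC reads. Its plus cytosine was the deepest 5fC cytosine of Tet1.

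Tet2 was marked unevenly, although only 2 of its 46 bins held no 5hmC cytosine. Its 5 fullest bins by reads held 35.4% of 5hmC reads and 38.1% of 5fC reads, against 25.1% and 32.2% for the same number of bins at Tet3. No genome-wide value of this share was computed. Most 5hmC cytosines lay from 133150001 to 133152000, with 76 cytosines and 1170 reads, and the bin before it had 64 cytosines and 1091 reads. The bin from 133130001 to 133132000 had 66 cytosines and 1126 reads. Most 5fC cytosines, 31 with 635 reads, lay from 133124001 to 133126000. The 10 bins that follow the fullest one, from 32 to 52 kb of the interval, held between 4 and 18 5hmC cytosines each. The median bin held 17.5 at Tet2 and 11 on the autosomes. This stretch of 10 bins held the 3 deepest 5fC cytosines of Tet2, all plus-strand CG: 133165788 with 118 reads, 133166094 with 108 and 133164544 with 106. Their 5hmC reads were 60, 97 and 21. The 5hmC-deep cytosines at 133143367 (90 reads) and 133210154 (84 reads) were not listed for 5fC. The longest stretch without a listed cytosine was 2528 bases, from 133195301 to 133197828.

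Tet3 carried its marks most heavily at the low-coordinate end, the 3′ side of a minus-strand gene. The 3 bins from 83314001 to 83320000 had the most listed cytosines of both marks and the most 5hmC reads, while by 5fC reads the bin from 83334001 to 83336000, with 597, matched the lowest of them within 1 read. They held 102, 109 and 120 5hmC cytosines with 1466, 1591 and 1757 reads, and 42, 66 and 78 5fC cytosines with 596, 841 and 1272 reads. The median bin of Tet3 had 36 5hmC and 10 5fC cytosines. Every one of its 50 bins held 5hmC cytosines, the fewest being 7, and 3 bins held no 5fC cytosine. Those were 83338001 to 83340000, 83348001 to 83350000 and 83358001 to 83360000, with 89, 225 and 281 5hmC reads. The deepest 5hmC cytosine, at 83315437 on the minus strand, had 106 reads, and the deepest 5fC cytosine, at 83361895 on the minus strand, had 91. The longest stretch without either mark was 1124 bases.

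Tdg, the shortest locus, had no bin without 5hmC. Its fullest 5hmC bin, from 82095001 to 82097000, had 50 cytosines and 667 reads but only 11 5fC cytosines with 174 reads. The bin from 82107001 to 82109000 had 43 5hmC cytosines (633 reads) and 16 5fC cytosines (218 reads). Most 5fC cytosines, 17 with 292 reads, lay from 82093001 to 82095000. Reads of both marks met at a CG dyad at 82104302, with 78 plus and 111 minus 5hmC reads and 36 plus and 136 minus 5fC reads. Its minus cytosine was the deepest of the locus for both marks and alone took 4.97% of the 5fC reads of Tdg. From 82111342 to 82113423, 2082 bases held no listed cytosine.

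**Figure D3:**
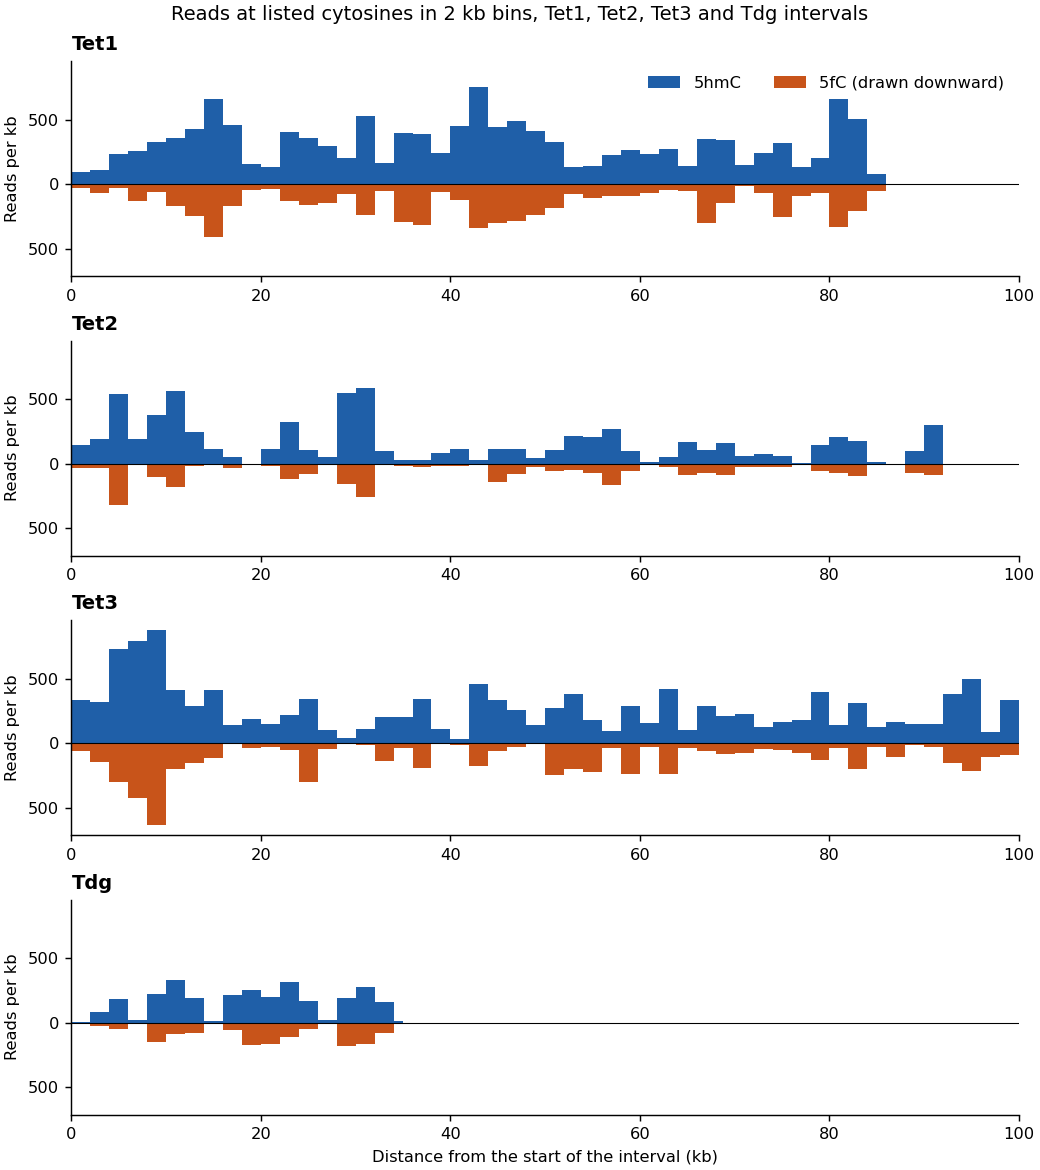
Reads per kb at listed cytosines in 2 kb bins (vertical axes; 5hmC upward, 5fC downward) by distance from the start of each interval in kb. Tet1 ends in 2 empty bins, Tet2 is marked unevenly, and at Tet3 the bins from 4 to 10 kb are the highest for 5hmC.

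The balance of the marks was measured as 5fC reads per 5hmC read, divided by the nuclear ratio of 0.387. It was 1.23 at Tdg (Wilson interval over reads 1.18 to 1.29), 1.21 at Tet1 (1.19 to 1.24), 1.13 at Tet3 (1.11 to 1.16) and 0.989 at Tet2 (0.959 to 1.02). These intervals treat reads as independent although many share a cytosine, so they understate the error. Tdg and Tet1 did not differ beyond counting error. Each value was above that of the flanks, which was 1.13 around Tdg, 1.15 around Tet1, 1.06 around Tet3 and 0.862 around Tet2. The left and right sides had 0.798 and 1.175 around Tdg, so the right side reached the lower limit of the Tdg interval. They had 1.135 and 1.169 around Tet1, 1.037 and 1.10 around Tet3, and 0.901 and 0.787 around Tet2. Windows of the same length were not laid through the flanks for this ratio. Against autosomal windows of the same length the 4 loci exceeded 90.3%, 92.4%, 86.6% and 71.1%, in that order. Along the bins of a locus the reads of both marks moved together, with a Spearman correlation of 0.84 over the 45 bins of Tet1, 0.76 over 46 at Tet2, 0.79 over 50 at Tet3 and 0.81 over the 17 full bins of Tdg. These correlations describe bins that share libraries, enzyme and base composition.

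Single bins departed from that balance. Among the 152 bins with at least 20 reads, 12 (7.89%) had at least 2 times the nuclear ratio, against 5.04% of autosomal bins. At most 0.5 times was found in 30 (19.7%), against 43.1%. The nuclear ratio weights bins by their reads, and the median autosomal bin had 0.611 times it (quartiles 0.184 and 1.09). The line at 0.5 times is thus close to the middle of autosomal bins. The low bins numbered 4 at Tet1, 11 at Tet2, 13 at Tet3 and 2 at Tdg. Autosomal bins had a median of 11 5hmC cytosines, fewer than the 35 of Tet1, 17.5 of Tet2, 36 of Tet3 and 26 of Tdg, and the part of this density in the ratios was not tested. The highest ratio at Tet3 was 3.22, from 83406001 to 83408000, with 175 5hmC and 218 5fC reads. At Tet2 it was 3.20, from 133164001 to 133166000, with 229 and 284 reads, in the bin that holds the deep 5fC cytosines at 133164544 and 133165788. At Tdg it was 2.40, from 82113001 to 82115000 (381 and 354 reads), and at Tet1 2.23, from 62326001 to 62328000 (695 and 601 reads). The lowest at Tet1 was 0.162, from 62330001 to 62332000, where 303 5hmC reads stood beside 19 5fC reads, 2 kb beyond the end of its highest bin. With bins of 5 kb, 3 of 64 bins were high, against 2.19% of autosomal bins, and 1 was low, against 37.3%.

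**Figure D4:**
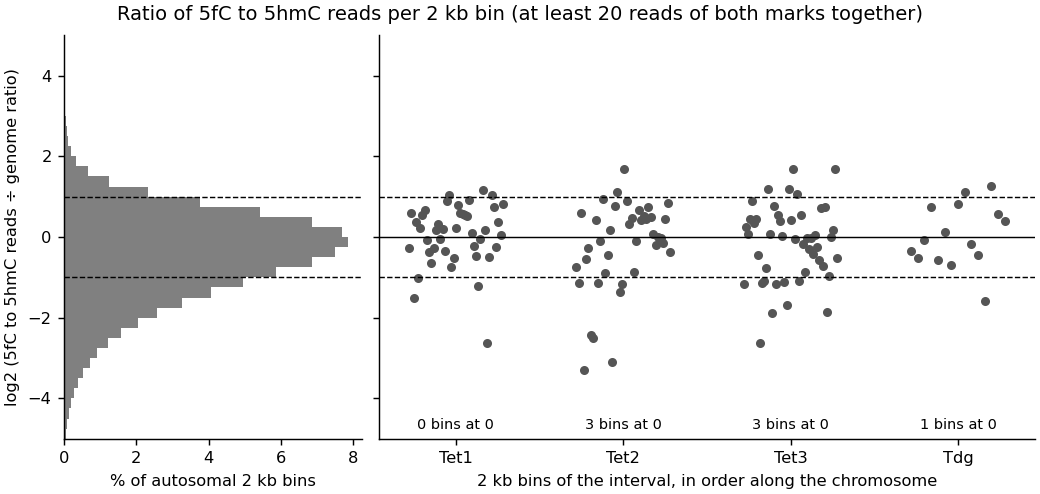
Ratio of 5fC to 5hmC reads over the nuclear ratio, on a log2 scale (vertical axis), for all autosomal 2 kb bins as a histogram (left) and for each bin of the 4 intervals as points (right); dashed lines mark 2 times and 0.5 times. Most points lie between the lines, and bins with no 5fC reads, which have no log2 value, are given as counts.

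Most listed cytosines of the loci were CG, with a smaller share than genome-wide for 5hmC. CG made up 69.3% of 5hmC cytosines at Tet1 (interval 67.0 to 71.4%), 73.6% at Tet2 (70.8 to 76.3%), 73.0% at Tet3 (71.1 to 74.9%) and 65.2% at Tdg (60.4 to 69.8%), against 76.5% of nuclear 5hmC cytosines. The flanks held 72.9%, 79.6%, 74.7% and 74.2%. Of 5fC cytosines 74.3% were CG at Tet1, 77.7% at Tet2, 74.9% at Tet3 and 67.9% at Tdg (59.7 to 75.0%), beside 75.2% in the nucleus. CA was the most frequent of the others for 5hmC, reaching 17.4% at Tdg and 16.6% at Tet1. Tdg also differed in how its non-CG cytosines lay. A listed CG was found 20 to 23 bases downstream of 44.2% of its 138 non-CG 5hmC cytosines (36.2 to 52.5%), against 62.2% genome-wide and 64.2% in its flanks. The shares at Tet1, Tet2 and Tet3 were 65.9%, 63.2% and 70.1%. Plus and minus strands were listed about equally, the plus share lying between 47.4% and 53.4% over loci and marks, with each interval including 50%.

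A CG dinucleotide is a dyad with a cytosine on each strand. At Tet1, 52.6% of 766 5hmC dyads were listed on both strands (interval 49.1 to 56.1%), at Tet2 46.0% of 509 (41.7 to 50.3%), at Tet3 44.3% of 1064 (41.3 to 47.3%) and at Tdg 37.8% of 188 (31.2 to 44.9%). The share rises with reads, so the nuclear share at equal reads per dyad was computed for each locus. It was 52.8% for Tet1, 48.0% for Tet2, 43.2% for Tet3 and 43.6% for Tdg, each inside the interval of the locus. For 5fC, 24.9% of 429 dyads were on both strands at Tet1, 25.3% of 459 at Tet3 and 21.8% of 78 at Tdg. Tet2 had 13.6% of 236 (9.77 to 18.5%), below the 20.2% that nuclear dyads with the same reads would give, while Tet3 (21.5 to 29.4%) was above its 21.1%.

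Tet1 stood out in how often 5hmC cytosines were also listed for 5fC. Of its 1688 5hmC cytosines, 34.8% were 5fC cytosines on the same strand (interval 32.5 to 37.1%). Nuclear cytosines with the same 5hmC reads would give 27.6%. In its flanks the share was 28.9%, where nuclear rates would give 24.8%. Tet3 had 26.6% (24.8 to 28.6%) against 23.4%, while Tet2 with 26.2% (23.6 to 29.0%) and Tdg with 26.9% (22.8 to 31.5%) included their nuclear values of 25.7% and 25.2%. By dyads, 53.0% of Tet1 5hmC dyads had 5fC on either strand, compared with 43.6% at Tet2, 40.6% at Tet3, 38.8% at Tdg and 31.8% in the nucleus. Both marks on both strands were present at 91 of 789 listed dyads at Tet1 (11.5%), 15 of 193 at Tdg (7.77%), 73 of 1091 at Tet3 (6.69%) and 24 of 523 at Tet2 (4.59%), against 4.85% in the nucleus. These dyad shares were not set against nuclear dyads with the same reads. Among nuclear 5hmC cytosines the share also listed for 5fC rose from 8.35% at 2 to 4 reads to 91.8% above 64. Tet1 had a median of 11 5hmC reads, against 8 in the nucleus. In the other direction, 81.4% of the 5fC cytosines of Tet1 were listed for 5hmC (78.4 to 84.1%). This was above the 76.3% of the nucleus and the 77.5% of nuclear cytosines with the same 5fC reads. It was also above the 72.9% of Tet3 (69.67 to 75.94%), whose interval included its nuclear value at the same reads, 75.87%.

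Where each mark was on 1 strand of a dyad, the strand was usually shared. This held for 84.6% of 143 such dyads at Tet1 (77.8 to 89.6%), 76.8% of 95 at Tet2 (67.4 to 84.2%), 70.5% of 146 at Tet3 (62.7 to 77.3%) and 71.0% of 31 at Tdg (53.4 to 83.9%). The nuclear share was 79.8%, so Tet3 lay below it and the other loci included it. The sources used here do not say how the 5fC libraries were kept free of 5hmC, and carry-over between the lists was not tested.

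**Figure D5:**
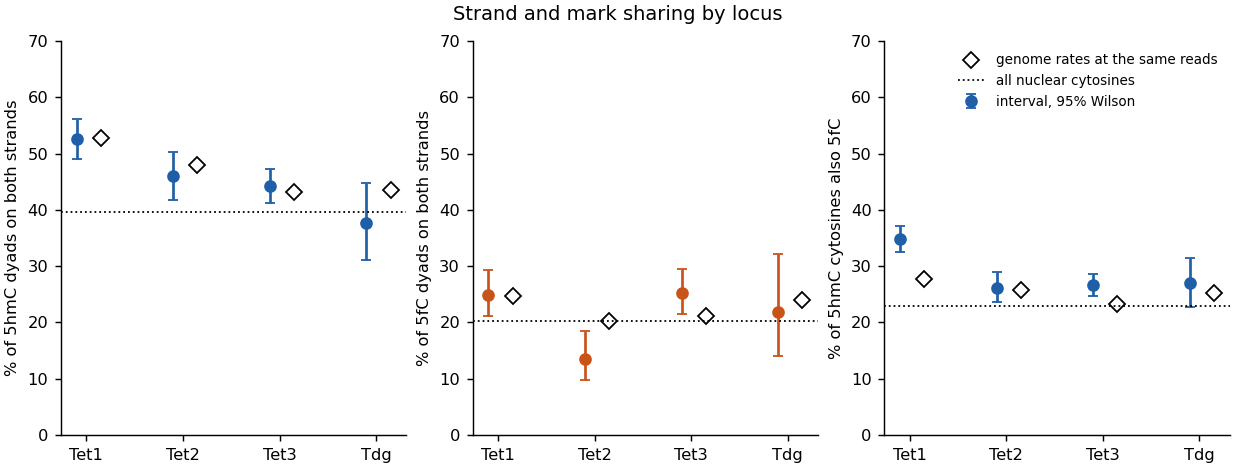
Shares in percent (vertical axes) of 5hmC dyads on both strands (left), 5fC dyads on both strands (middle) and 5hmC cytosines also listed for 5fC (right) for the 4 loci, as points with 95% Wilson intervals; diamonds give nuclear rates at the same reads and dotted lines the nuclear shares. The right panel shows Tet1 at 34.8% above its diamond at 27.6%, and the middle panel Tet2 at 13.6% below its diamond at 20.2%.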

How the data were processed

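The values are raw read counts: for each mark the authors deposited 1 table with the position, strand, dinucleotide and count of every listed cytosine. Per the submitters' processing notes, CASAVA, bcl2fastq, cutadapt, Bowtie and the mm9 build were used. The sources used here do not say how cytosines were called or which libraries were summed. Labels of both cultures name the 5hmC table, which was treated as that of passage 14. The tables held 264008048 5hmC and 102305049 5fC reads, sums that are not the sequencing depth, and each listed cytosine had at least 2 reads. Absence from a list does not show that a cytosine lacked the mark.

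Intervals, 2 kb bins, flanks of 500 kb and all nuclear chromosomes were counted alike, and positions are given from 1. Autosomal windows without a 5hmC cytosine were left out of the percentiles. Nuclear shares at equal reads used 6 classes of reads. The named features were the 4 genes, in each the 3 bins with the most cytosines of a mark, the bins of extreme ratio, the longest empty stretch, the deepest cytosines and the deepest dyads with both marks. Other features named were picked after their values were seen. The loci, lists and measures were chosen with earlier results of these data known. Gene exons, start positions of the 4 genes in mm9 and genes of like pattern were not analysed here, since RefSeq (GRCm38.p6) is of another build. Placed promoters around Tet1 and Tet3 kept their RefSeq spacing, but this was not used to place the starts of Tet1 and Tet3. RefSeq gave promoter letters and strands for 4 of 4 genes. On simulated data with 20000 dyads the scripts passed 6 of 6 checks. Python 3.11.15, numpy 2.4.6, pandas 2.3.3, scipy 1.17.1 and matplotlib 3.10.9 were used, and no p-values were computed.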

Additional observations from a re-analysis of the deposited data

How the results depend on the processing

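Of 72 recomputed values, 42 stayed within the counting interval or count range of the reported value and 30 moved out of it. A called direction was reversed by 0, but only densities at the TET loci and ratios at Tet1, Tet3 and Tdg had such a direction. Shares and bin counts had none, nor did the Tdg densities or the Tet2 ratio, whose intervals included equality. Bins of 5 kb were counted out of 64 and bins of 2 kb out of 152, so the 2 counts have unlike totals. The shares changed as well: low bins fell from 30 of 152 to 1 of 64, and high bins from 12 of 152 to 3 of 64. The cause of the moves was not tested. No paired analysis was possible because a mark has a single read number at each cytosine, and for the same reason no library was left out.

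Relative to the flanks, with at least 10 reads per cytosine the densities were 1.35 for Tet1 5hmC, 1.496 for Tet1 5fC and 1.84 for Tet2 5hmC. With CG alone they were 1.16 for Tet1 5hmC, 1.42 for Tet2 5hmC and 0.942 for Tdg 5hmC, the last now below 1. With 250 kb flanks they were 1.24 for Tet2 5hmC, 1.49 for Tet2 5fC, 1.48 for Tet3 5hmC and 1.2 for Tdg 5hmC. With intervals shortened by 5 kb at both ends they were 1.35 for Tet1 5hmC, 1.56 for Tet1 5fC and 1.22 for Tdg 5hmC.

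The 5fC to 5hmC ratio with at least 10 reads was 1.14 at Tet1, 0.946 at Tet2 and 1.10 at Tet3, and with CG alone 1.03 at Tet2 and 1.18 at Tet3. With at least 10 reads in both lists, 66.9% of 5fC cytosines at Tet1, 64.7% at Tet2, 60.4% at Tet3 and 63.0% at Tdg were listed for 5hmC. Dyads on both strands then made up 35.2% at Tet1, 32.5% at Tet2, 24.4% at Tet3 and 19.4% at Tdg for 5hmC, and 17.8% at Tet1 and 17.9% at Tet3 for 5fC. With 5 kb bins, 3 of 64 bins were at or above 2 times the nuclear ratio (2.19% of autosomal bins) and 1 was at or below 0.5 times (37.3%), against 12 and 30 of 152 bins of 2 kb (5.04% and 43.1%).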
